A study of Mus musculus with 12 samples.

Results

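The genes described here are 10 transcription factors that act while a progenitor in the thymus commits to the T lineage: Tcf7, Lef1, Bcl11b, Tcf12, Tcf3, Myb, Ikzf1, Ets1, Spi1 and Lyl1. They were chosen by name, and all 10 were found among the 22843 gene symbols of the mRNA table. The study sequenced whole thymus RNA of wild type male C57BL/6 mice at 2 weeks (2W), 6 weeks (6W) and 3 months (3M), ages that cover the growth of the organ and the start of its involution. There were 2 biological replicates per age, in 6 RNA libraries for mRNA and circular RNA (circRNA) and 6 separate small RNA libraries for miRNA, and no agent was given to any group. Each factor is given as the sum of the estimated counts of its transcripts, per 1000000 counts of the library after TMM scaling (CPM). The mRNA libraries held 16519753 to 22553481 estimated counts. No source used here says how many mice gave 1 replicate.

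Progenitors that reach the thymus still carry factors of other blood lineages, among them Spi1 and Lyl1. Notch signals switch on Tcf7, the protein of which opens chromatin at T cell genes and helps to switch on Bcl11b. Bcl11b then closes the way to the natural killer and myeloid fates. The E proteins encoded by Tcf12 and Tcf3 drive the rearrangement and selection of the T cell receptor, while Myb, Ikzf1 and Ets1 are needed for the survival and proper ordering of the stages from double negative to double positive. Double positive cells, which carry both CD4 and CD8, make up most of a young thymus.

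The tissue label was checked against markers. Rag1, which cuts the receptor genes in developing lymphocytes, was at 7542 to 11178 CPM. None of the 12 pan-T genes or the 10 double positive genes was at 0 in all libraries. The same held for the granulocyte and B cell markers, so the absence of zeros cannot tell the tissue. A pair of libraries stood apart in how counts were divided among the transcripts of a gene, as described below for the members: 2W replicate 2 and 3M replicate 1. On the second principal component of all genes, which took 25.04% of the variance, 3M replicate 1 lay at -53.1 and the other libraries between -15.8 and 35.3.

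Bcl11b and Tcf12 were the 2 members whose level differed between ages after adjustment over all genes, and both were lower at 3M than at 2W. Myb was also lower at 3M and missed the threshold narrowly. Tcf7, Lef1, Tcf3, Ikzf1 and Ets1 had smaller decreases over the same interval that did not pass. Spi1 and Lyl1, the factors shared with other blood lineages, had higher values at 6W than at 2W in both libraries, and neither passed.

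**Figure D1:**
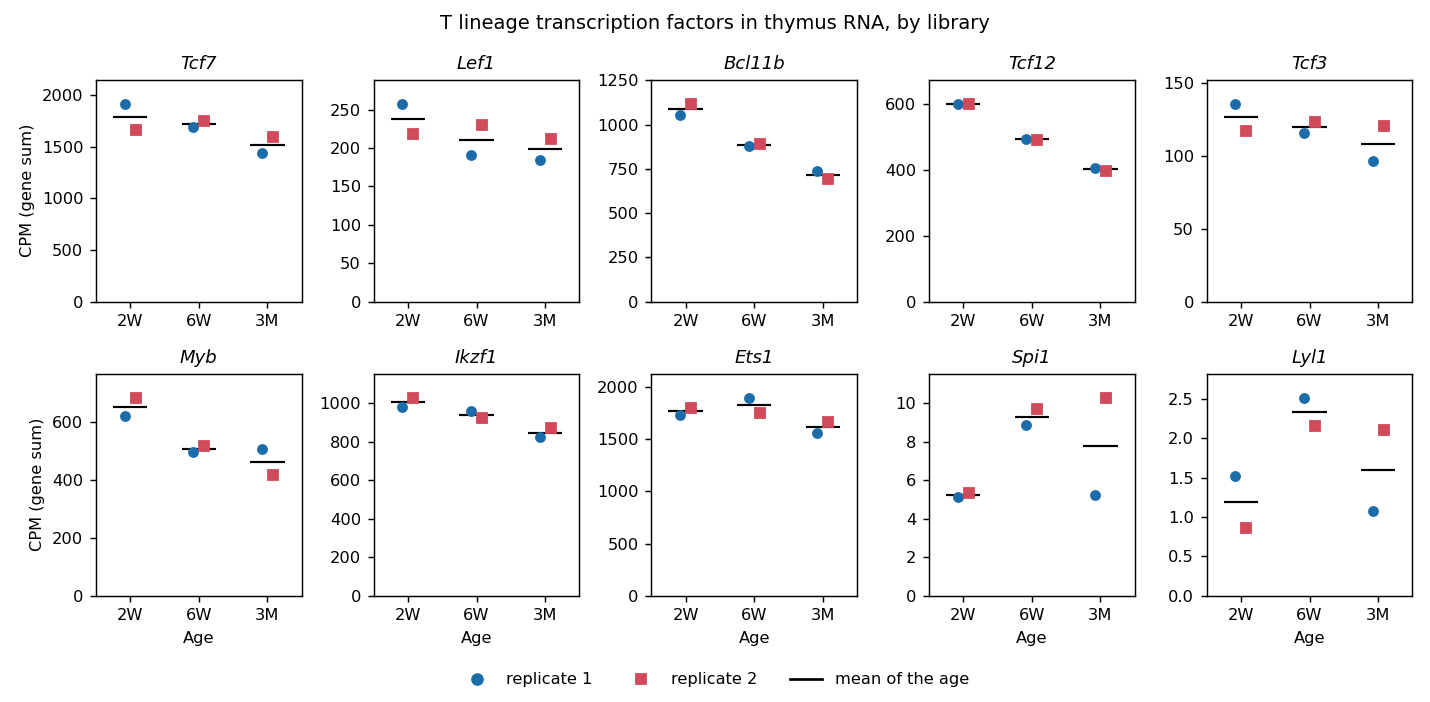
Gene sums in CPM (vertical axes, each starting at 0) of the 10 factors in the 6 RNA libraries by age (horizontal axes). Circles are replicate 1, squares replicate 2 and black lines the mean of the age. The points of Bcl11b and Tcf12 step down at each age with no overlap, and those of Spi1 and Lyl1 are split at 3M.

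Levels can be set side by side between genes only per length, so FPKM (fragments per kilobase of transcript and per 1000000 fragments, as deposited and summed over transcripts) was used for the order. Tcf7 was the highest member at 639 ± 58.9 FPKM (SD, n = 6 libraries), and Ets1 followed at 322 ± 24.7. Ikzf1 at 193 ± 20.9, Myb at 155 ± 23.2, Tcf12 at 128 ± 25.1 and Bcl11b at 117 ± 19.5 formed a middle group. The ranges of neighbours in this group overlapped over all ages, but the order was the same in each of the 6 libraries. Lef1 at 71.8 ± 6.49 and Tcf3 at 38.3 ± 4.12 stood clear of their neighbours in all libraries. Spi1 at 5.21 ± 1.69 and Lyl1 at 0.885 ± 0.361 were at the bottom, and the lowest Spi1 library still lay above the highest Lyl1 library.

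The HMG box factors came first. Tcf7 encodes TCF-1, the first of these factors to be induced by Notch in the thymus. Its gene sum was 1917 and 1658 CPM at 2W, 1691 and 1746 CPM at 6W, and 1439.8 and 1594 CPM at 3M. Both 3M libraries lay below the other 4. The log2 fold change of 3M against 2W was -0.24 (standard error, SE, 0.11; adjusted p = 0.211 by edgeR's quasi-likelihood test with Benjamini-Hochberg adjustment over all 14805 genes tested, as for every adjusted p of a gene below). It was -0.14 without 3M replicate 1, -0.35 without 3M replicate 2 (unadjusted p = 0.0231; adjusted p = 0.122) and -0.13 without 2W replicate 1. Of 6W against 2W it was -0.06 (SE 0.11), and the libraries of those ages overlapped.

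Lef1, the close relative that shares much of the work of TCF-1, was at 258 and 218 CPM at 2W, 191 and 229.7 CPM at 6W, and 185 and 212 CPM at 3M. The differences between replicates were similar in size to those between ages. The log2 fold change of 3M against 2W was -0.26 (SE 0.15; adjusted p = 0.307). With each library left out in turn it ran from -0.40 (without 3M replicate 2) to -0.14 (without 2W replicate 1 or 3M replicate 1). Tcf7 exceeded Lef1 in FPKM by 8.54 to 10.1 times in every library, with no order by age.

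Bcl11b and Ikzf1 encode zinc finger factors. The gene sum of Bcl11b was 1054 and 1119.9 CPM at 2W, 879.6 and 889 CPM at 6W, and 737 and 691 CPM at 3M. Each later age lay wholly below the one before it. From 2W to 3M it fell by 34.3%, a log2 fold change of -0.61 (SE 0.09; 95% interval -0.83 to -0.39; adjusted p = 0.0131). The steps were -0.30 for 6W against 2W (SE 0.09; unadjusted p = 0.0152; adjusted p = 0.166) and -0.31 for 3M against 6W (SE 0.09; unadjusted p = 0.0128; adjusted p = 0.259), and neither passed alone. How the decrease was divided between the steps moved with the setting, at -0.17 and -0.45 with annotated transcripts alone, -0.14 and -0.39 with limma on FPKM, and -0.32 and -0.12 with scaling to the pan-T genes. These steps share the 6W libraries and are not independent of each other.

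Ikzf1 encodes Ikaros, which restrains Notch targets and keeps precursors from proliferating without limit. It was at 979.5 and 1030.1 CPM at 2W, 962 and 922 CPM at 6W, and 823 and 874 CPM at 3M. In CPM the ages did not overlap and stepped down. In FPKM the 6W libraries, at 213 and 206.5, lay above the 2W libraries, at 205.6 and 196, and the 6W against 2W value of -0.09 became 0.06 with limma on FPKM and 0.0038 with annotated transcripts alone. The log2 fold change of 3M against 2W was -0.24 (SE 0.09; unadjusted p = 0.0335; adjusted p = 0.144).

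Tcf12 encodes HEB, an E protein needed for the passage from the double negative to the double positive stage. It was at 601.8 and 601.4 CPM at 2W, 495 and 492 CPM at 6W, and 405 and 398 CPM at 3M. In CPM the replicates of an age were almost equal and the ages did not overlap. In FPKM the 2W replicates were at 159 and 139, against 136 and 137 at 6W. From 2W to 3M it fell by 33.3%, a log2 fold change of -0.58 (SE 0.09; 95% interval -0.80 to -0.37; adjusted p = 0.0137). The 6W against 2W step was -0.29 (unadjusted p = 0.0163; adjusted p = 0.171) and the 3M against 6W step -0.30 (unadjusted p = 0.0138; adjusted p = 0.263). With limma on FPKM the steps were -0.12 and -0.49, and with scaling to the pan-T genes -0.30 and -0.11. With DESeq2 the step from 6W to 3M passed for Tcf12 (adjusted p = 0.0389).

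Tcf3 encodes E2A, the other E protein of early T cells. It was at 136 and 117 CPM at 2W, 116 and 123 CPM at 6W, and 96.5 and 120.4 CPM at 3M. The libraries of neighbouring ages overlapped, and the log2 fold change of 3M against 2W was -0.22 (SE 0.15; adjusted p = 0.376). It moved with the 3M library left out, to -0.05 without replicate 1 and to -0.43 without replicate 2 (unadjusted p = 0.0216; adjusted p = 0.117). The FPKM ratio of Tcf12 to Tcf3 was 3.70 and 3.82 at 2W, 3.52 and 3.37 at 6W, and 2.95 and 2.55 at 3M. That ratio stepped down with no overlap between ages, although with 2 libraries against 2 an exact two-sided permutation test cannot give a p below 0.333.

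The calls of Bcl11b and Tcf12 held in some fits and not in others. Of the 11 settings other than single libraries left out, 9 kept both calls. Among them were DESeq2 (adjusted p = 1.49e-07 for Bcl11b and 4.46e-08 for Tcf12), total counts (0.0154 and 0.0178) and limma on FPKM (0.0286 and 0.0244). With the 4 libraries of 2W and 3M alone, the same log2 fold changes of -0.60 and -0.58 had adjusted p = 0.0589 and 0.0642. Leaving out 2W replicate 1, 2W replicate 2, 6W replicate 1 or 6W replicate 2 also ended both calls, with adjusted p of 0.0572 to 0.0693 for Bcl11b and 0.063 to 0.0727 for Tcf12. Both calls held without 3M replicate 1 and without 3M replicate 2, and both log2 fold changes stayed between -0.65 and -0.56 in all 6 of these fits. Without 2W replicate 2 and 3M replicate 1 together, a choice made after seeing the data, the adjusted p was 0.00676 for Bcl11b and 0.00822 for Tcf12.

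The promoter windows of these factors are shown because both genes decreased together. RefSeq (GRCm38.p6) gave windows of 300 bases, 250 before and 50 after a transcription start, for 8 of the 10 members, and the most upstream window of each gene was used. Bcl11b lies on the minus strand at chr12:108003365-108003664 and Tcf12 on the minus strand at chr9:72111770-72112069. Capitals mark matches to 8 short motifs, searched on both strands. They were CTTTGAT for the factors TCF-1 and LEF-1, the E-box CAGCTG, its other form CACCTG, and TGTGGTT for the RUNX proteins. The ETS family was searched as CCGGAAG, and the form that Spi1 prefers was searched as GAGGAAG. The remaining motifs were AGATAA for the GATA proteins and AACTGAC for Myb. None of the motifs lies within another.
Bcl11b: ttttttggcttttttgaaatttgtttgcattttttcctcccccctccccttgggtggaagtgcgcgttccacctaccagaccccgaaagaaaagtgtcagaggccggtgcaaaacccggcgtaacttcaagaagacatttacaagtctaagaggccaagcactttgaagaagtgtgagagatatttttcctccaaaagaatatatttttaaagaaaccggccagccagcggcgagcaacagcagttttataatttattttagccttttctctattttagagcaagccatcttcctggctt
Tcf12: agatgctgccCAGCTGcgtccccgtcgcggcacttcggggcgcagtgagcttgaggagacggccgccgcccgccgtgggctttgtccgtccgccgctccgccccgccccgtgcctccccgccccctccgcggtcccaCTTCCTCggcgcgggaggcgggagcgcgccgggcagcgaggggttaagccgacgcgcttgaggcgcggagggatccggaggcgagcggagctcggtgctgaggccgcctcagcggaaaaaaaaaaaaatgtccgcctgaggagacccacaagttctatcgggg
The Bcl11b window held none of the motifs and was 43% G and C, against a median of 52.7% over all 32851 windows. The Tcf12 window was 71.7% G and C and held CAGCTG with its first base at -240 and GAGGAAG, on the other strand, at -113. Of all windows, 16.3% hold CAGCTG and 13.6% hold GAGGAAG, so these matches are common. The pair shared no motif in these windows.

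Myb is needed for the survival of double positive thymocytes while they rearrange the alpha chain genes. Its gene sum was 621 and 684 CPM at 2W, 496 and 519 CPM at 6W, and 505 and 418 CPM at 3M. Both 2W libraries lay above all later ones, and 6W and 3M overlapped. The log2 fold change of 3M against 2W was -0.50 (SE 0.12; unadjusted p = 0.00553; adjusted p = 0.0501). Whether Myb passed varied with the setting. It passed with DESeq2 (adjusted p = 0.00195), with no filter (adjusted p = 0.0334), with annotated transcripts alone (-0.69, adjusted p = 0.0454), without 3M replicate 1 (-0.62, adjusted p = 0.0288) and without 2W replicate 2 and 3M replicate 1 together (-0.54, adjusted p = 0.0108). It did not pass with total counts (adjusted p = 0.0626), scaling to the pan-T genes (-0.33, adjusted p = 0.141), exact symbols (adjusted p = 0.0584), limma on FPKM (adjusted p = 0.0685) or the 4 libraries of 2W and 3M (adjusted p = 0.133). With any of the other 5 libraries left out alone, it was at -0.57 to -0.40 with an adjusted p of 0.0919 to 0.168.

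The ETS factors differed in level by far more than in age response. Ets1, which supports survival and receptor signalling in T cells, was at 1731 and 1805 CPM at 2W, 1901 and 1750.0 CPM at 6W, and 1564 and 1670.1 CPM at 3M. The 3M libraries were the lowest, and the 2W and 6W libraries overlapped. The log2 fold changes were 0.05 for 6W against 2W, -0.17 for 3M against 6W and -0.13 for 3M against 2W, with SE 0.09 each and adjusted p of 0.41 to 0.81. The last was -0.06 without 3M replicate 1, -0.21 without 3M replicate 2 and 0.04 with scaling to the pan-T genes.

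Spi1 encodes PU.1, which drives myeloid and B cell genes and is silenced as T cells commit. It was at 5.12 and 5.33 CPM at 2W, 8.87 and 9.71 CPM at 6W, and 5.23 and 10.3 CPM at 3M. Both 6W libraries lay above both 2W libraries, and at 3M replicate 1 was as low as 2W while replicate 2 was the highest of all. The log2 fold change of 6W against 2W was 0.83 (SE 0.32; 95% interval 0.07 to 1.59; unadjusted p = 0.0374; adjusted p = 0.238). Of 3M against 2W it was 0.58 (SE 0.32; adjusted p = 0.298), and it became 1.003 (adjusted p = 0.0292) without 3M replicate 1 and -0.03 without 3M replicate 2. Without 3M replicate 1 the 6W against 2W value was also called, with an adjusted p of 0.0484. The FPKM ratio of Ets1 to Spi1 was 90.2 and 84.3 at 2W, 57.2 and 52.4 at 6W, and 74.5 and 42.8 at 3M.

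Lyl1, a bHLH factor of stem and progenitor cells that is lost early in T cell development, was the lowest member. It had 24 and 14 counts at 2W, 52 and 49 at 6W, and 18 and 47 at 3M, which is 1.52 and 0.858, 2.52 and 2.16, and 1.08 and 2.11 CPM. As for Spi1, both 6W libraries were above both 2W libraries and the 3M libraries were split. The log2 fold change of 6W against 2W was 0.98 (SE 0.47; 95% interval -0.14 to 2.10; adjusted p = 0.316). Of 3M against 2W it was 0.44 (adjusted p = 0.605), and it became 0.85 without 3M replicate 1 and -0.16 without 3M replicate 2. The 6W against 2W interval covers both no difference and a fold of 4.28, so that little can be said of Lyl1 from these libraries.

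**Figure D2:**
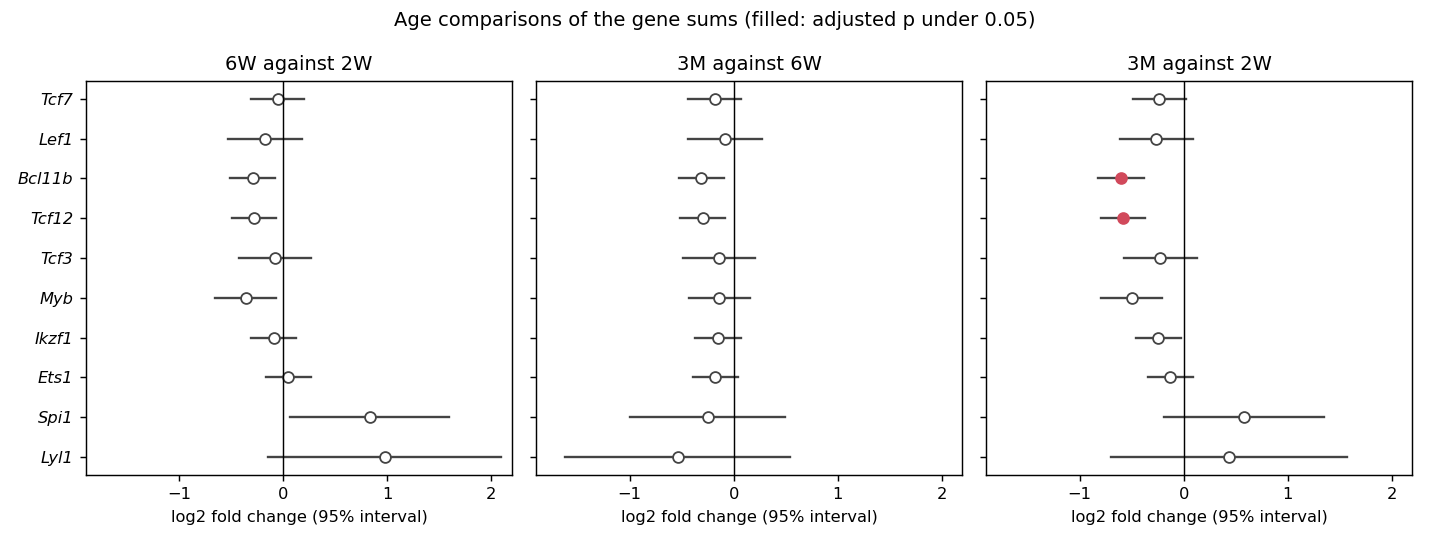
Log2 fold changes of the gene sums (horizontal axes) for each factor in the 3 age comparisons, with 95% intervals from the fit as lines. Filled points, which are Bcl11b and Tcf12 in 3M against 2W, have an adjusted p under 0.05. The intervals of Spi1 and Lyl1 are the widest.

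Counted over the list, 0 of the 10 members passed in 6W against 2W, where 1.74% of all genes did in either direction and 0.263% were lower, and 4 had an unadjusted p under 0.05, 3 lower (Bcl11b, Tcf12 and Myb) and 1 higher (Spi1). The background at that unadjusted threshold was 7.49% lower and 11.4% higher. In 3M against 6W, 0 of 10 passed against a background of 0.00675%, and 2 (Bcl11b and Tcf12) were lower at an unadjusted p under 0.05, against 6.46% of all genes. In 3M against 2W, 2 of 10 passed, both lower, where 3.1% of all genes were lower and 11% passed in either direction. At an unadjusted p under 0.05, 4 members were lower (Bcl11b, Tcf12, Myb and Ikzf1) against 10.6% of all genes. The study screened by an unadjusted p under 0.05 and a log2 fold change beyond 1 in either direction. No member met that, where 5.36% of all genes did in 6W against 2W, 2.11% in 3M against 6W and 9.35% in 3M against 2W.

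The direction of the members was mostly down. All 10 had a log2 fold change below 0 in 3M against 6W, where 46.8% of all genes did, and the median was -0.18 against 0.02 over all genes. In 3M against 2W, 8 of 10 were below 0 (52.7% of all genes) with a median of -0.24 against -0.03. In CPM, the libraries of 7 members (Tcf7, Lef1, Bcl11b, Tcf12, Myb, Ikzf1 and Ets1) did not overlap and were lower at 3M than at 2W, where 24% of all genes did the same. Between 2W and 6W, 4 members did not overlap and were lower (background 29.8%) and 2 were higher (background 28%). Between 6W and 3M, 6 were lower without overlap (background 23.3%). In CPM, Bcl11b, Tcf12 and Ikzf1 stepped down at both intervals without overlap (for Ikzf1 the first step turned in FPKM), as 5.36% of all genes did. The counts without overlap hold for CPM, since in FPKM the 2W and 3M libraries of Tcf7, Lef1 and Ets1 overlapped.

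In CPM, both 6W libraries of Lyl1 lay above the other 4, as they did for 7.04% of all genes, and this held for no other member. In FPKM it also held for Ikzf1 (212.68 and 206.48, against at most 205.61) and Ets1 (362.66 and 331.07, against at most 323.8). In the comparison of 6W with the mean of 2W and 3M, no member had an unadjusted p under 0.05 (4.55% of all genes lower and 6.04% higher), and edgeR called 0 of 14805 genes after adjustment (1567 at an unadjusted p under 0.05; 119 adjusted calls with DESeq2). The median over the members was 0.03. Without 3M replicate 2, Spi1 had 0.86 (unadjusted p = 0.0016; adjusted p = 0.133) and Lyl1 1.08 (unadjusted p = 0.0281; adjusted p = 0.202) in this comparison.

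In RNA of a whole organ, fewer cells of a type and less RNA of a gene per cell cannot be told apart, and the sums of marker genes are therefore given beside the members. The 10 double positive markers summed to 15261 to 16989.7 CPM at 2W, 14064 to 14115 CPM at 6W and 12120 to 12198 CPM at 3M. Rag1, at the levels given above, made up a large part of this sum. From 2W to 3M, 6 of the 10 fell (median log2 fold change -0.47). The 10 cycling markers summed to 4167 to 4173 CPM at 2W, 3306 to 3366 CPM at 6W and 2215 to 2793 CPM at 3M, and 8 of the 10 fell. The 9 double negative markers summed to 1325 to 1330.1 CPM at 2W, 830.4 to 832 CPM at 6W and 964 to 1025 CPM at 3M, and from 2W to 3M 3 fell and 2 rose. The 8 mature thymocyte markers summed to 480.0 to 491 CPM at 2W, 664 to 671 CPM at 6W and 667 to 668 CPM at 3M, and 3 of the 8 rose from 2W to 3M. The part of these lists in the values of the members was not tested. The 12 pan-T genes summed to 5161 to 5242 CPM at 2W, 5253 to 5276 CPM at 6W and 4609 to 4631 CPM at 3M, and 0 of 12 passed in 3M against 2W (1 at an unadjusted p under 0.05).

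With libraries scaled to the pan-T sum in place of TMM, Bcl11b and Tcf12 were still called in 3M against 2W, at -0.44 (adjusted p = 0.0279) and -0.41 (adjusted p = 0.029). That scaling shifted the median of all genes to 0.15 in this comparison and to 0.21 in 3M against 6W. It put Tcf7, Lef1, Tcf3, Myb, Ikzf1 and Ets1 at 0.01 to 0.11 in 3M against 6W, above 0 but below that shifted median.

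Beside Spi1 and Lyl1, the 15 macrophage and monocyte markers summed to 375 to 432 CPM at 2W, 805 to 861 CPM at 6W and 876 to 925 CPM at 3M. In 6W against 2W, 4 of the 15 rose and 14 were higher at an unadjusted p under 0.05, and none was at 0 in all libraries. Lyz2, the lysozyme of macrophages, rose from 141 and 131 CPM to 333 and 311 CPM (log2 fold change 1.24, adjusted p = 0.0231). The 9 granulocyte markers summed to 18.02 to 36.5 CPM at 2W, 66.4 to 75.3 CPM at 6W and 10.1 to 24.7 CPM at 3M, with 0 of 9 called in 6W against 2W and 3 at an unadjusted p under 0.05. In 3M replicate 1, where Spi1 and Lyl1 were low, the macrophage sum was 876 CPM and the granulocyte sum 10.1 CPM, the lowest of the libraries. In 3M replicate 2, where Spi1 was highest, the granulocyte sum was also low, at 24.7 CPM. Most of the 12 dendritic cell markers were higher at 6W than at 2W, with a median log2 fold change of 0.93. Of these markers 3 were called higher, and at an unadjusted p under 0.05 10 were higher and 1 lower. In 3M against 2W, 7 were called higher and 1 lower. Their sum went the other way, at 795 to 811 CPM at 2W, 748 to 762 CPM at 6W and 709.8 to 719 CPM at 3M. The 9 B cell markers summed to 55.4 to 60.9 CPM at 2W, 81.1 to 89.1 CPM at 6W and 64.1 to 71.7 CPM at 3M, and 0 of the 8 tested passed in 6W against 2W (4 higher at an unadjusted p under 0.05). The erythroid markers, 8 of 9 of which were in the table, summed to 548 to 816 CPM at 2W and 402 to 482 CPM at 6W, and at 3M to 511 CPM in replicate 1 and 2167 CPM in replicate 2, the replicate in which Spi1 and Lyl1 were higher. The part of these cells in the Spi1 and Lyl1 values was not tested.

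**Figure D3:**
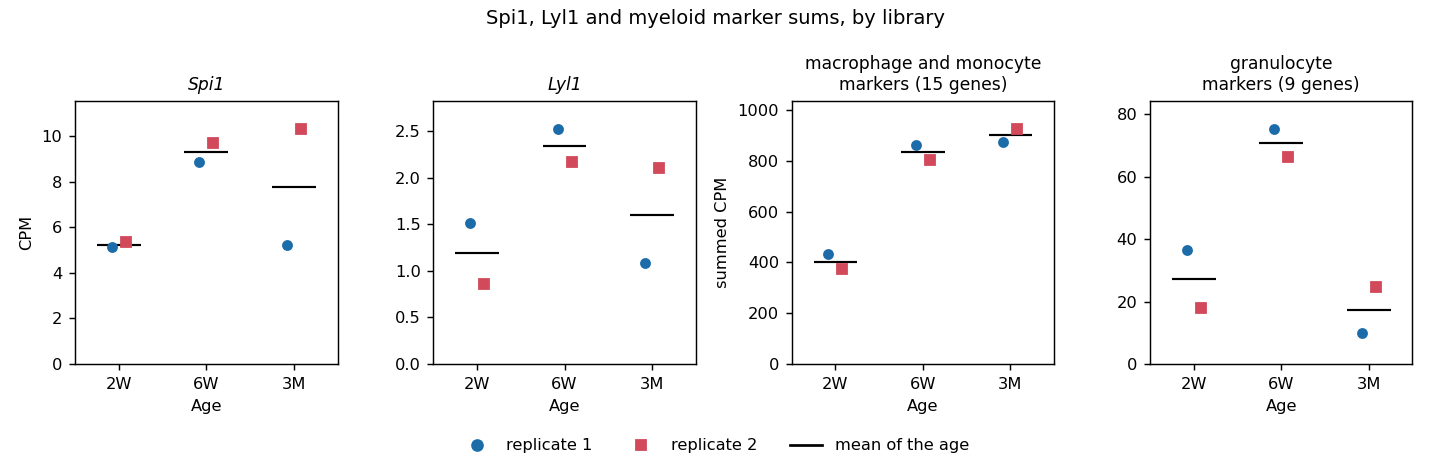
Spi1 and Lyl1 (CPM, the first and second panels) beside the summed CPM of macrophage and monocyte markers and of granulocyte markers, by age. Circles are replicate 1, squares replicate 2 and lines the mean. The macrophage sum stays high in both 3M libraries and the granulocyte sum is low in both (10.1 and 24.7 CPM), while at 3M Spi1 and Lyl1 are low in replicate 1 and higher in replicate 2.

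The other genes of this pathway were read from 3 lists. Of 26 further T lineage factors, 0 passed in 6W against 2W or in 3M against 6W (5 and 3 at an unadjusted p under 0.05), and 4 fell in 3M against 2W. Gfi1, a repressor that restrains cytokine receptors in precursors, went from 99.8 and 103.8 CPM at 2W to 60.7 and 60.7 CPM at 3M (log2 fold change -0.75, adjusted p = 0.0108). The repressor gene Zeb1 had -0.59 (adjusted p = 0.0288) and Sox13 had -0.91 (adjusted p = 0.0468). Among the smallest p values at the single steps were those of Gfi1 (-0.54, adjusted p = 0.0593) and Runx1 (-0.51, adjusted p = 0.105) in 6W against 2W, and of Zeb1 (-0.32), Tox (-0.28) and Hes1 (0.58) in 3M against 6W, with adjusted p of 0.31 to 0.342.

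Of 23 factors of progenitors and other lineages, 20 were tested, and the called ones were higher with age. Cebpa, a myeloid factor that is also active in fat cells, rose from 10.4 and 12.4 CPM at 2W to 20.7 and 19.2 CPM at 6W (0.81, adjusted p = 0.0461), and was at 38.0 and 37.4 CPM at 3M (1.72 against 2W, adjusted p = 0.00485). In 3M against 2W, Lmo2 had 1.38 (adjusted p = 0.0164) and Irf8 0.85 (adjusted p = 0.0238). In 3M against 6W 0 of 20 passed (3 at an unadjusted p under 0.05), and Cebpa (0.92) and Meis1 (0.50) were among those with the smallest p. The 8 adipocyte markers summed to 88.6 to 110.2 CPM at 2W, 240.3 to 251 CPM at 6W and 268 to 550.0 CPM at 3M, and their part in the Cebpa values was not tested.

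Of 23 family relatives of the members, 22 were tested. Ikzf3, the Ikaros relative Aiolos, went from 652 and 622 CPM at 2W to 410.4 and 400.4 CPM at 3M (-0.65, adjusted p = 0.0116), where Ikzf1 had -0.24. Ets2 had -0.62 (adjusted p = 0.024), where Ets1 had -0.13. Id2, which binds E proteins and blocks them, rose from 18.3 and 22.4 CPM at 2W to 41.1 and 34.7 CPM at 3M (0.90, adjusted p = 0.0167), the opposite sign to Tcf12. Tle1, a corepressor of TCF-1 and LEF-1, rose by 1.39 on the log2 scale (adjusted p = 0.00561). Spib, the closest relative of Spi1, rose from 15.7 and 14.9 CPM at 2W to 24.9 and 26.3 CPM at 6W (0.74, adjusted p = 0.0443) and was at 17.0 and 18.1 CPM at 3M. In 3M against 6W 0 of 22 passed (4 at an unadjusted p under 0.05), and Tle1 (0.79), Spib (-0.54) and Ikzf3 (-0.37) had the smallest p. The differences between relatives were not tested.

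Notch1, the receptor upstream of Tcf7, was at 886 and 865 CPM at 2W, 453 and 479.7 CPM at 6W, and 501 and 565 CPM at 3M. Its log2 fold change of 6W against 2W was -0.91 (adjusted p = 0.0231), while that of Tcf7 was -0.06. Dtx1, a Notch target, was at 32.9 and 35.6 CPM at 2W, 15.8 and 16.8 CPM at 6W, and 33.8 and 34.0 CPM at 3M, and fell in 6W against 2W (-1.07, adjusted p = 0.0231). Its 3M values lay within the range of the 2W values.

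The members were represented by 60 transcripts, of which 6 were assembled by the authors (named TCONS) and 4 had no count in any library. The 43 that could be tested gave 0 calls in each of the 3 age comparisons after adjustment over 35277 transcripts. At an unadjusted p under 0.05, 1, 2 and 7 were lower and none higher. The background at that unadjusted threshold, in either direction, was 7.71%, 6.91% and 11%. DESeq2 gave 9 adjusted calls over the comparisons. The share of all transcripts that DESeq2 called is not reported here, so the 9 are not read as a result about the members. The main Bcl11b transcript, ENSMUST00000066060, held 51.8% of the counts of its gene and had -0.60 in 3M against 2W (SE 0.11; adjusted p = 0.179). Tcf7 and Ets1 were each nearly a single transcript, at 94.9% for ENSMUST00000086844 and 98.8% for ENSMUST00000034534. For Tcf12, ENSMUST00000034755 held 55.6% of the counts.

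The division among transcripts set 2W replicate 2 and 3M replicate 1 apart. Of the 42 member transcripts with at least 100 counts from genes with several transcripts, 23 (54.8%) had a share of their gene in both of these libraries that lay outside the range of the other 4 on the same side. Over all 26586 such transcripts it was 23.5%. Bcl11b transcript ENSMUST00000109891 took 0.311% of its gene in 2W replicate 2 and 1.08% in 3M replicate 1, against 5.78% to 9.93% elsewhere. Ikzf1 transcript ENSMUST00000018798 was listed at 0 in both, against 528 to 1439 counts in the other 4. Lef1 transcript ENSMUST00000066849 showed the opposite, at 411 and 377 counts against 0 in the other 4. The assembled Myb transcript TCONS_00011318 took 33.0% and 48.1% of its gene, against 19.1% to 25.6%. Assembled transcripts as a whole took 13.5% and 14.1% of all counts in these libraries and 11.2% to 12.2% in the others. Since the pair holds 1 library of 2W and 1 of 3M, single transcripts were not read as age differences, and gene sums were used.

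**Figure D4:**
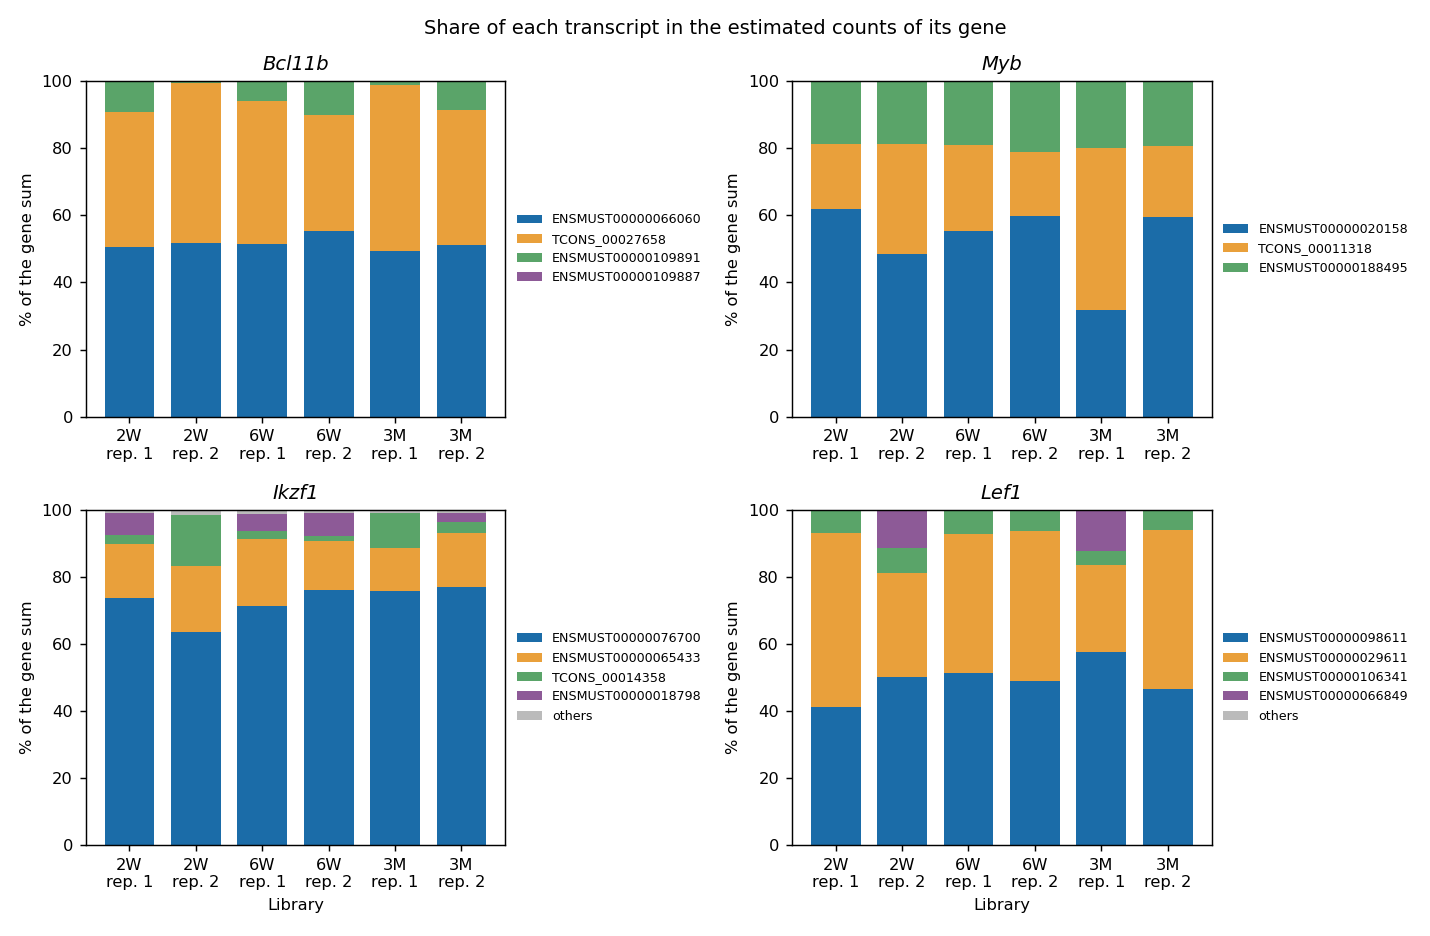
Percent of the estimated counts of each gene (vertical axes) taken by its transcripts in the 6 libraries (horizontal axes), for Bcl11b, Myb, Ikzf1 and Lef1, with colours for transcripts. The bars of 2W replicate 2 and 3M replicate 1 differ from the other 4, for example by the absent ENSMUST00000018798 of Ikzf1 and the ENSMUST00000066849 of Lef1 seen in these libraries alone.

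CircRNAs, which are closed by a back-splice and recognised by reads across it, were listed for 7 of the 10 members, and none for Tcf3, Spi1 and Lyl1. The 56 circRNAs lay within the RefSeq span of the member gene in GRCm38.p6, although the file gives no build and the processing notes of the submitters name mm8. Their coordinates are given as deposited. Of the 56, 4 are listed as antisense to the gene (2 of Bcl11b and 2 of Tcf7) and are counted under its symbol, as the table lists them. Bcl11b had the most, with 12 circRNAs and 124 and 75 junction counts at 2W, 130 and 201 at 6W, and 29 and 94 at 3M. Ikzf1 followed with 15 and 32 at 2W, 62 and 88 at 6W, and 47 and 35 at 3M. Myb and Ets1 each had 129 counts in all. Tcf7, Lef1 and Tcf12 had 22 to 29 counts in all, too few to compare ages.

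Per 10000 estimated counts of the same gene, Bcl11b gave 74.4 and 41.1 junction counts at 2W, 71.6 and 99.8 at 6W, and 23.7 and 60.9 at 3M. The ages of Bcl11b did not fully separate, since 71.6 at 6W lay below 74.4 at 2W, and both 3M values lay below both 6W values. Ikzf1 gave 9.68 and 19.0 at 2W, 31.3 and 42.1 at 6W, and 34.4 and 17.9 at 3M. Both 6W values of Ikzf1 lay above both 2W values, while the 3M replicates were spread over most of the range. For Myb the values were 14.3 to 31.5 and for Ets1 3.06 to 10.8, with overlap of 6W and 2W in both. Over all circRNAs and mRNAs the ratio was 6.52 and 6.61 at 2W, 9.23 and 9.79 at 6W, and 6.70 and 7.12 at 3M, so a higher value at 6W was shared by the libraries as a whole.

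**Figure D5:**
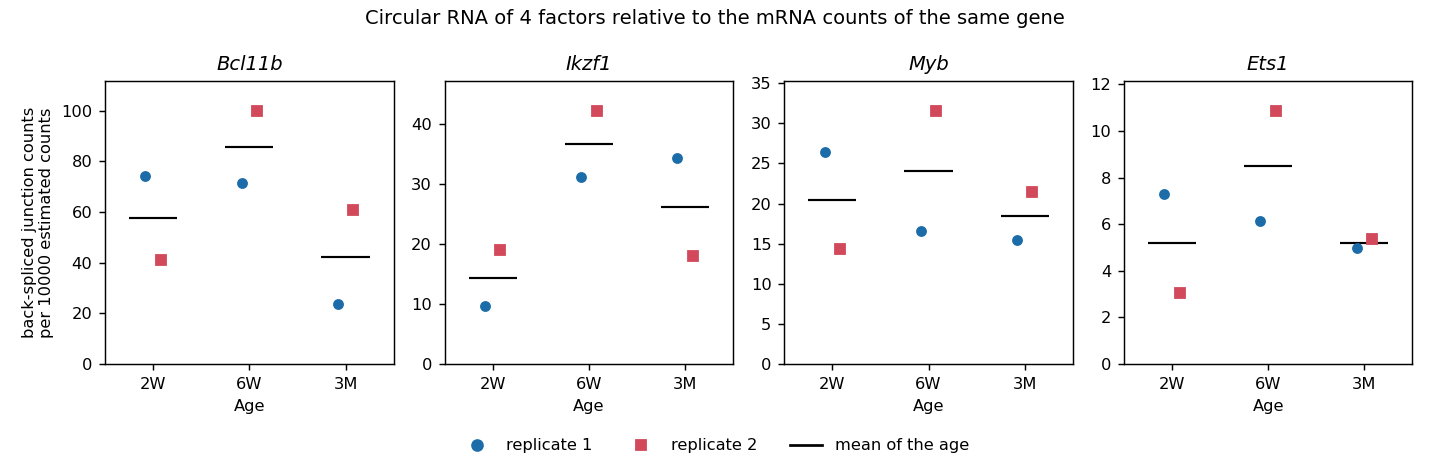
Back-spliced junction counts per 10000 estimated mRNA counts of the same gene (vertical axes, from 0) for Bcl11b, Ikzf1, Myb and Ets1, by age. Circles are replicate 1, squares replicate 2 and lines the mean. The replicates of an age differ widely, as at 3M for Bcl11b (23.7 and 60.9), and the 6W mean is the highest for each gene.

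The most abundant member circRNA was novel_circ_001449, a single exon of Bcl11b on the minus strand at chr12:107989465-107989830 with a spliced length of 366 bases. It had 78 and 38 counts at 2W, 86 and 111 at 6W, and 17 and 44 at 3M. It was the 1 call among the 32 member circRNAs tested (of 2779, with 0% called in 6W against 2W, 0.288% in 3M against 6W and 0.036% in 3M against 2W), at a log2 fold change of -1.35 in 3M against 6W (SE 0.32; adjusted p = 0.0196). The call ended without 3M replicate 1 (-0.77, adjusted p = 0.985), 6W replicate 1 (-1.26) or 6W replicate 2 (-1.17), and when libraries were scaled by total counts alone (-1.10, adjusted p = 0.19). In 3M against 2W it had -1.19 (adjusted p = 0.251), which became -1.69 and a call without 2W replicate 2 (adjusted p = 0.000883) and -0.46 without 2W replicate 1 (adjusted p = 0.764). Its neighbour novel_circ_001448 has the same lower genomic coordinate, and its upper coordinate is 3 bases lower. That neighbour had 15 and 14, 26 and 54, and 5 and 28 counts at the 3 ages. Its log2 fold change was -0.94 in 3M against 6W (adjusted p = 0.877) and -0.08 in 3M against 2W (adjusted p = 0.988). Both circRNAs are listed as lying in 1 exon. The leading Ikzf1 circRNA, novel_circ_000742 at chr11:11700205-11707904, had 8 and 11, 25 and 53, and 29 and 20 counts at the 3 ages and was not called.

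The small RNA libraries held a pair of miRNAs that are known to act on members. Their mature sequences are shown as deposited, in DNA letters, with the seed (bases 2 to 8) in capitals.
mmu-miR-150-5p: tCTCCCAAcccttgtaccagtg
mmu-miR-155-5p: tTAATGCTaattgtgataggggt
The seeds differ, and miR-150-5p is known to repress Myb and miR-155-5p to repress Spi1. miR-150-5p was at 1384 and 1153 CPM at 2W, 1757 and 1526 CPM at 6W, and 2702 and 2052 CPM at 3M. The ages stepped up with no overlap, while Myb was highest at 2W. From 2W to 3M it rose by 0.91 on the log2 scale (SE 0.22; adjusted p = 0.0118), where 29.9% of the 822 miRNAs tested were called. The call ended without small RNA library 2W replicate 2 (0.78, adjusted p = 0.06) or 3M replicate 1 (0.69, adjusted p = 0.0708). The log2 fold changes of 6W against 2W (0.37, adjusted p = 0.303, 8.64% called) and of 3M against 6W (0.53, adjusted p = 0.23, 0.852% called) did not pass. miR-155-5p was at 358 and 437 CPM at 2W, 311 and 368 CPM at 6W, and 405 and 338 CPM at 3M, with overlap of all ages and no call. miR-181a-5p, which is abundant in double positive cells, was at 254663 to 327126 CPM and was not called. No relation between a miRNA and its target was tested, since each age had 2 libraries of either kind.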

How the data were processed

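Groups were taken from the age in the labels. For mRNA, the authors deposited estimated counts and FPKM per transcript. The circRNA and miRNA tables were deposited as whole junction counts and tag counts. The aligner and counting program of the mRNA table are not given in the sources used here. The processing notes of the submitters name Bowtie 0.12.2 and mm8 without saying for which table. The lncRNA table was not used. Estimated counts were summed over the rows of a symbol, upper and lower case alike, and the sums were then rounded. Joining the cases touched no member.

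Tests used R 4.3.3 with edgeR 4.0.16 (TMM scaling, filterByExpr by age, quasi-likelihood F test, all 6 libraries, prior count 0.125), with Benjamini-Hochberg adjustment over all 14805 genes, 35277 transcripts, 2779 circRNAs (those with at least 6 counts) or 822 miRNAs of a comparison. Standard errors were taken as the fitted change over the root of F, and 95% intervals from them. CPM of miRNAs is relative to the tabled counts. Alternatives were DESeq2 1.42.0, total counts, scaling to the pan-T list, no filter, 4 libraries, a replicate block, exact symbols, annotated transcripts alone, limma 3.58.1 on log2(FPKM + 0.1) and each library left out. Added after seeing the data were the fit without 2W replicate 2 and 3M replicate 1 and a crossed block. The scripts were tested on simulated data. Figures were drawn with Python 3.11.15 and matplotlib 3.10.9.

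The members, gene lists and tests were chosen with earlier results of these data known. Named are all members, and from each factor list the genes with an adjusted p under 0.05 in a comparison, or otherwise the 3 with the smallest p. Some genes that this rule names are not reported here. Marker lists are given as sums and counts, and Rag1, Lyz2, Notch1 and Dtx1 were named from them outside this rule, after their values were seen. The most abundant transcript and circRNA of members were named likewise. The 3M against 2W comparison shares libraries with the other comparisons. In the main fits the p-values rest on the spread between the 2 replicates of an age. That spread was pooled over the 3 ages and drawn towards that of the other features tested.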

Additional observations from a re-analysis of the deposited data

How the results depend on the processing

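In the gene sums as reported, the adjusted calls of members were Bcl11b and Tcf12 in 3M against 2W, and their direction was the same in all settings run. The number of members called there was 0 with the 4 libraries of 2W and 3M alone, 0 with the replicate block and 4 without 2W replicate 2 and 3M replicate 1 together (Myb and Spi1 added), and 0 to 4 with each library left out. With the replicate block the adjusted p was 0.0505 for Bcl11b and 0.054 for Tcf12, and the block lowered the genes called in 3M against 2W from 1630 to 742. Libraries of an equal replicate number share only that number, since deviations of same-numbered libraries correlated at -0.06 (2W and 6W), -0.18 (2W and 3M) and 0.35 (6W and 3M). With the 3M numbers swapped, 3 members were called in 3M against 2W.

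In 6W against 2W the count of members was 0 to 1 with a library left out. In 3M against 6W it was 1 with DESeq2. Member transcripts gave 9 calls with DESeq2 against 0. For these and for the circRNA and miRNA counts that follow, the share over all features in the same fit is not reported here. Member circRNAs gave 0 calls with total counts and 0 with filterByExpr, and 0 to 3 with a library left out, and the miRNAs gave 0 to 1. Over all genes, adjusted calls in 6W against 2W were 257, and 888 with DESeq2, 395 with total counts, 467 with no filter, 662 with 4 libraries, 936 without the pair of 2W replicate 2 and 3M replicate 1, 0 to 658 with each library left out, 5 with the block and 4 with annotated transcripts. In 3M against 6W they were 1, and 341 with DESeq2, 401 without that pair and 19 with no filter. In 3M against 2W they were 1630, and 2200 with DESeq2, 2714 without that pair, 239 to 1741 with each library left out, 663 with 4 libraries and 922 with annotated transcripts.

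Some members changed sign, and no value with the opposite sign was called. With the pan-T scaling, 3M against 6W gave 0.0082 for Tcf7, 0.11 for Lef1, 0.047 for Tcf3, 0.052 for Myb, 0.038 for Ikzf1 and 0.013 for Ets1, 3M against 2W gave 0.042 for Ets1, and 6W against the mean of 2W and 3M gave -0.041 for Tcf7, -0.097 for Bcl11b, -0.097 for Tcf12, -0.073 for Tcf3 and -0.074 for Ikzf1. In 6W against 2W, Tcf7 was at 0.0098 with total counts and 0.034 with limma on FPKM, Ikzf1 at 0.0038 with annotated transcripts and 0.061 with FPKM, and Tcf3 at 0.0020 with FPKM. In 6W against the mean of 2W and 3M, Myb was at 0.053 with annotated transcripts and Lef1 at 0.0040 with FPKM.

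With each library or the pair of 2W replicate 2 and 3M replicate 1 left out, the values whose sign turned ranged from -0.13 to 0.052 (Tcf7), -0.16 to 0.029 (Tcf3) and -0.013 to 0.11 (Ets1) in 6W against 2W, from -0.24 to 0.056 (Lef1), -0.36 to 0.018 (Tcf3) and -0.88 to 0.16 (Spi1) in 3M against 6W, from -0.033 to 1.04 (Spi1) and -0.16 to 0.90 (Lyl1) in 3M against 2W, and from -0.016 to 0.14 (Tcf7), -0.19 to 0.080 (Lef1), -0.016 to 0.061 (Bcl11b), -0.088 to 0.15 (Tcf3), -0.15 to 0.0028 (Myb) and -0.00038 to 0.086 (Ikzf1) in 6W against the mean of the other ages. The cause was not tested. Of the alternative values for single members and all-gene counts, 876 kept their direction and side of the threshold or moved little, 65 counts moved by more, 10 values became calls, 12 lost a call and 42 changed sign. Lyl1 had 14 to 52 counts, and the part of depth in its spread was not tested.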
